A study of Mus musculus with 6 samples.

Results

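AP-1 is a family of dimeric transcription factors, and the genes described here are 10 of its subunits: Fos, Fosb, Fosl1, Fosl2, Jun, Junb, Jund, Atf3, Maff and Batf. They were chosen by name, and every probe set annotated to 1 of them alone was taken from both chips, which gave 14 probe sets for 10 of 18193 genes measured. The RNA came from 1 kind of sample, myospheres, floating cell clusters cultured from the hind-leg muscle of Balb/c males, whose cells had been enriched by flow cytometry for Sca1, a cell surface antigen. They were kept for 4 days, per the labels, in Neurocult, a neural stem cell medium, supplemented with EGF, LIF and B27 and with an additive spelled bf6f, and total RNA was taken at passage 1 from 2000000 cells. Replicates 1 to 3 went onto 1 MOE430A and 1 MOE430B chip (Affymetrix) each, 6 arrays in all, with no second condition, no control culture and no unsorted cells. The labels give all 6 arrays the same submitter sample number, and the design text counts 1 sample with 6 replicates. Nothing says that the replicates were separate cultures, so each SD, SE and p-value measures only the spread between these arrays, which may be technical. Genes that mark fibro-adipogenic progenitors, which form the connective tissue of muscle, were above the background limit on all 3 arrays for 5 of 5 (Pdgfra, Cd34, Dcn, Col3a1 and Thy1), those of endothelial cells for 2 of 5 (Kdr and Cldn5) and those of myogenic cells for 0 of 5 (Pax7, Myf5, Myod1, Myog and Des), against 36.1% of all genes. Of the myogenic genes, Myog (730, 1332 and 1468 in replicates 1, 2 and 3) and Myod1 (1074, 605 and 1062) were above it on 2 of 3 arrays.

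AP-1 subunits share a basic region that contacts DNA and a leucine zipper through which they pair. Jun proteins pair with one another or with Fos proteins, and Fos proteins do not pair with one another. The dimers bind the palindrome TGANTCA, and dimers with ATF proteins bind the related TGACGTCA. Several of these genes are immediate early genes, which growth factors and stress switch on through MAP kinases without new protein synthesis, and in muscle Fos and Jun are known to be induced early after injury.

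Because several AP-1 genes are known to be regulated by factors of their own class, the 250 bases before the annotated start were searched for such motifs in the RefSeq promoters of GRCm38.p6. The 4 windows below are shown since Fos, Jun and Maff were measured above background and Atf3 was not, and each of the 4 holds a searched motif. Capitals mark the match.
Fos: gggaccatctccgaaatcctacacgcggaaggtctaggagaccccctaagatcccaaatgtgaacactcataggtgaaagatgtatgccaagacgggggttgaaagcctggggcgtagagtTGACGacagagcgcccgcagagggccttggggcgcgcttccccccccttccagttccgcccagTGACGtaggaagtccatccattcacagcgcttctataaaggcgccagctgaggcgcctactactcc
Jun: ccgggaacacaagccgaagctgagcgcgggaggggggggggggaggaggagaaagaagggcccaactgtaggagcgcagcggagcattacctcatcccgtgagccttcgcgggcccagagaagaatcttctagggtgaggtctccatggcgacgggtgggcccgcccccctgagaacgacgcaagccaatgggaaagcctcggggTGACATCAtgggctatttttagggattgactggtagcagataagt
Maff: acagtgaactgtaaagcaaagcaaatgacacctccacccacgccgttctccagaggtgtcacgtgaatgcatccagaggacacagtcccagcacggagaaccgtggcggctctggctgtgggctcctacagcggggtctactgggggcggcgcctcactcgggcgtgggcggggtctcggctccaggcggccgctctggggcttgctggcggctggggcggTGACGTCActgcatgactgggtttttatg
Atf3: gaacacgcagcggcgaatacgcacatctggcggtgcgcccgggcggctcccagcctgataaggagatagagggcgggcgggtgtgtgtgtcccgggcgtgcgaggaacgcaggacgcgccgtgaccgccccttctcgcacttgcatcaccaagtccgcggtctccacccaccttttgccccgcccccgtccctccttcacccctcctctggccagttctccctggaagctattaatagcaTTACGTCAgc
The Fos window lies at chr12:85473640-85473889 on the plus strand and the Jun window at chr4:95052223-95052472 on the minus strand. The Maff window, the second of 3 listed for that gene, lies at chr15:79347270-79347519 on the plus strand, and the Atf3 window at chr1:191183334-191183583 on the minus strand.

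Of the 10 genes, 9 had a promoter in the table, in 11 windows, and Fosl1 had none listed. Motifs were counted on both strands, and they were chosen after the sequences had been read. The full palindrome TGANTCA was in 0 of 11 windows, against 6.75% of 32851 promoter windows of the same length. TGACGTCA was in the Maff window shown (1.55% of all windows). TGACATCA, which departs from it by 1 base, was in the Jun window shown, 37 bases before the start, and in the third Maff window (2.93% of all). Atf3 held TGACGTAA, read on the opposite strand as TTACGTCA, 2 bases before the start (0.447% of all). The core TGACG, which overlaps TGACGTCA and TGACGTAA, was in 7 of 11 windows, of Fos, Fosb, Junb, Batf, Maff and Atf3, against 17.8% of all. The CArG box, which serum response factor binds, was in 0 of 11 (1.47% of all). Only the 250 bases before the start were searched, so motifs farther upstream, CArG boxes included, were not counted. A count of 0 therefore does not mean that these genes lack the motif. A match of letters is not a binding site, and a window without one says nothing of the factor.

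Signal is the MAS5 value, a linear intensity that the authors scaled so that the trimmed mean was the same on each array, near 1500 (1500.19 to 1500.76). As no detection calls were used, each array got a background limit, the 95th percentile of probe sets for genes of other tissues such as odorant and vomeronasal receptors, keratin-associated proteins and defensins. For MOE430A, from 150 probe sets, it was 819.7 in replicate 1, 785 in replicate 2 and 822 in replicate 3, and for MOE430B, from 43 probe sets, 3266, 2940.4 and 2560.15 in the same order. The rule for a probe set was a signal over the limit on each of the 3 arrays, and for a gene at least 1 such probe set. Probe sets differ in affinity and the chips were scaled apart, so a signal is compared with nothing but its own array's limit, and the genes are not ranked by level.

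By this rule 7 of 10 AP-1 genes were above the limit, and 36.1% of all 18193 genes were. These were Fos, Fosl1, Fosl2, Jun, Junb, Jund and Maff, whereas Fosb, Atf3 and Batf were not. Genes with more probe sets pass more often: of the AP-1 genes with 1 probe set 3 of 6 were above (22.1% of all such genes), and of those with 2 it was 4 of 4 (42.3%). Among the 12 AP-1 probe sets on MOE430A 7 were above, as were 35.1% of that chip's probe sets, and among the pair on MOE430B 1 was, as were 10% of that chip's. A test of log2 signal minus log2 limit above 0, one-sided, with limma and Benjamini-Hochberg adjustment over each chip, called the same 7 of 10 genes, and 32.1% of all genes. Of probe sets it called 7 of 12 on MOE430A (32.2% of that chip's) and 1 on MOE430B (7.2%). It takes the limit as fixed.

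**Figure D1:**
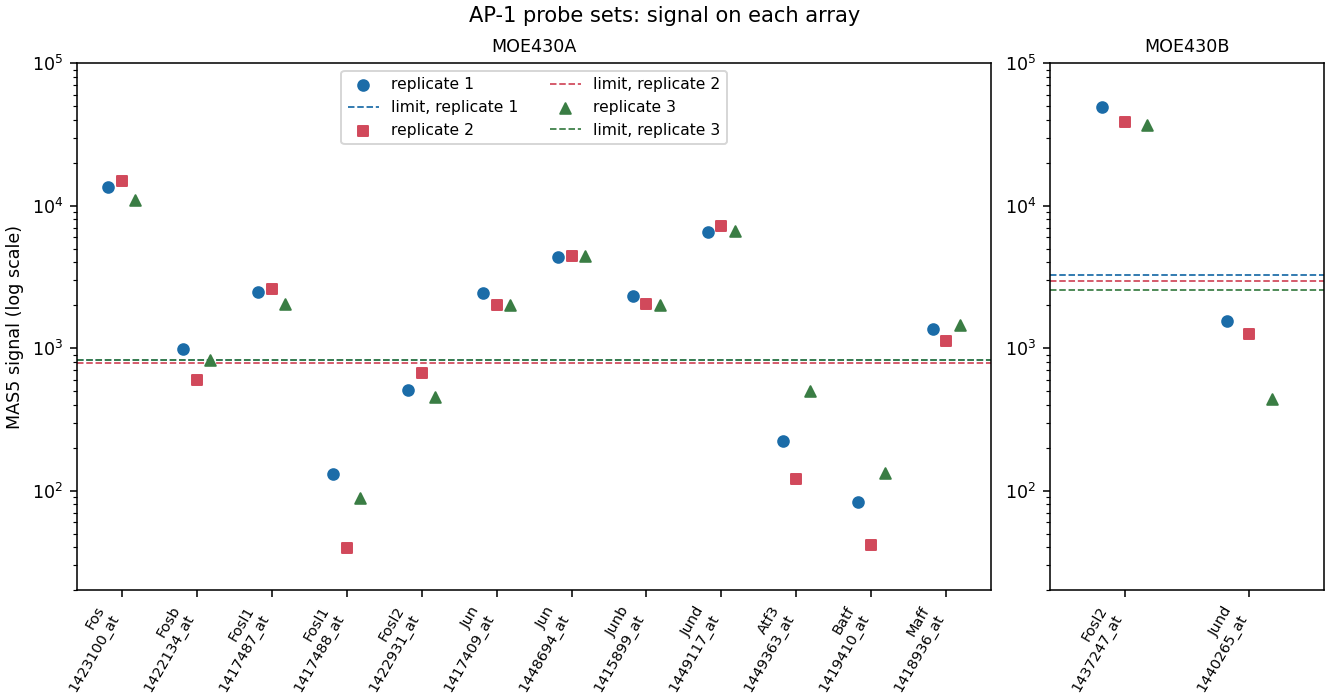
MAS5 signal (log scale) of the 12 AP-1 probe sets on MOE430A and the pair on MOE430B, a point for each of the 3 replicates, with each array's background limit as a dashed line. Fos lies at 10991 to 14957 and Jund on MOE430A at 6538 to 7192, far above limits of 785 to 822, and the points of Fosb straddle the limits.

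Among the Fos family, Fos, the founding member and an immediate early gene, gave signals of 13540, 14957 and 10991 in replicates 1, 2 and 3 (probe set 1423100_at, MOE430A). All 3 lay 13.4 to 19.1 times above the limit, with replicate 2 the highest and replicate 3 the lowest. The mean was 13162 ± 2009.7 (SD, n = 3), and the log2 ratio to the limit was 4.01 ± 0.12 (SE; limma, adjusted p = 4.1e-08).

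Fosl1, which encodes Fra-1, a Fos protein without the strong activation domain of Fos, had 2 probe sets on MOE430A that disagreed. The set 1417487_at gave 2477, 2594 and 2029, above the limit on every array by 2.47 to 3.31 times (log2 ratio 1.54 ± 0.12 SE; limma, adjusted p = 8.2e-06). The other, 1417488_at, gave 130.5, 39.8 and 88.6, at most 0.159 of the limit.

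Fosl2, which encodes the related protein Fra-2, was above the limit by its MOE430B probe set alone. That set, 1437247_at, gave 49626, 38683 and 36925, or 15.2, 13.2 and 14.4 times the limit of the same array (log2 ratio 3.83 ± 0.11 SE; limma, adjusted p = 1.51e-12). With no intensity trend the SE was 0.29 and the adjusted p 0.0127 (limma), so the size of this p-value depends on the variance model. Replicate 1 was the highest in signal, and its array also had the highest limit and, per the file headers, came from another chip lot than the other two. On MOE430A, 1422931_at gave 505, 669 and 451, under the limit on each array at 0.549 to 0.852 of it.

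Fosb, which is also an immediate early gene, gave 988, 595 and 827 (1422134_at, MOE430A). Replicates 1 and 3 were above their limits, at 1.20 and 1.01 times, and replicate 2 was below, at 0.758. The log2 ratio was -0.04 ± 0.19 (SE; limma, adjusted p = 1), so the gene lay at the limit within the spread of its arrays. Signal under the limit does not mean that the transcript was absent.

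The Jun family was above the limit for all 3 genes. Jun, the main partner of Fos, was above it by both of its MOE430A probe sets. The set 1448694_at gave 4338, 4439 and 4453, the closest agreement of any AP-1 probe set, with a coefficient of variation of 1.43% (log2 ratio 2.45 ± 0.09 SE; limma, adjusted p = 9.93e-08). The set 1417409_at gave 2442, 2010.3 and 2016, with replicate 1 the highest (log2 ratio 1.41 ± 0.11 SE; limma, adjusted p = 9.31e-06).

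Junb, which can oppose Jun on some promoters, gave 2307, 2031 and 2016 (1415899_at, MOE430A), 2.45 to 2.81 times the limit. Replicate 1 was the highest, and the highest array exceeded the lowest by 1.14 times. The log2 ratio was 1.39 ± 0.10 (SE; limma, adjusted p = 7.86e-06).

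Jund, the Jun gene that is expressed most steadily in many cell types, gave 6538, 7192 and 6600 on MOE430A (1449117_at), 7.98 to 9.16 times the limit. Its log2 ratio was 3.07 ± 0.09 (SE; limma, adjusted p = 4.16e-08), and the arrays lay within 1.10 times of each other. On MOE430B, 1440265_at gave 1543, 1256 and 442, at most 0.473 of the limit, with replicate 3 far below the other two.

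In 3 of the 4 genes with 2 probe sets (Fosl1, Fosl2 and Jund), 1 set was above the limit and the other was not. How often this occurs among all genes with 2 probe sets was not counted, so it is not read as a trait of AP-1 genes. For Fosl1 the sets were on the same chip, so the scaling of the chips does not enter. Where the probe sets lie along the transcripts is not given in the sources used here. Control sets read 10.4 to 15.4 times more signal at the 3' end than at the 5' end of Gapdh and actin, as means on the MOE430A and MOE430B arrays, and the part of this in the disagreements was not tested. Its part in the calls of Fosb, Atf3 and Batf, which rest on 1 probe set each, was not tested either.

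The remaining subunits belong to other branches. Maff, a small Maf protein that lacks an activation domain and pairs with cap'n'collar and some AP-1 factors, gave 1358, 1126 and 1453 (1418936_at, MOE430A). All arrays were above the limit, by 1.43 to 1.77 times (log2 ratio 0.69 ± 0.13 SE; limma, adjusted p = 0.00191). Replicate 2 was the lowest.

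Atf3, a stress-induced factor that as a homodimer represses transcription, gave 224, 121 and 503 (1449363_at, MOE430A), under the limit on every array. Replicate 3 exceeded replicate 2 by 4.16 times, and even that array reached only 0.612 of the limit. Batf, which pairs with Jun proteins in lymphocytes and lacks an activation domain, gave 82.6, 41.6 and 132.8 (1419410_at, MOE430A), at most 0.162 of the limit. Its log2 ratio was -3.39 ± 0.51 (SE). Lymphocyte markers were above the limit for 1 of 4 measured, Cd8a, by 1 of its 5 probe sets, an _x_at set on MOE430B whose probes can match other transcripts. Of leukocyte and macrophage markers 2 of 5 were above (Csf1r and Adgre1). The others did not pass the rule, though Tyrobp and Cd68 were above on 2 of 3 arrays. Ptprc, which defines leukocytes, was above on 1 array by its MOE430A set.

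The other genes of the pathway were counted by the same rule in 5 lists, which were drawn up from general knowledge of the pathway with earlier results of these data known. Of 68 measured, 54 were above the limit (79.4%), against 36.1% of all genes. By number of probe sets the shares were 72.7%, 77.3% and 87.5% for listed genes with 1, 2 and 3 or more, against 22.1%, 42.3% and 59.1% of all genes. These counts describe the chosen genes, so they are not independent support, and no test of the lists was made.

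Upstream of the Fos and Jun genes, 8 of 11 kinases and serum response factors were above. The stress kinases Mapk8, which phosphorylates Jun, and Mapk14 were at 2236 ± 536 and 2474 ± 238 by their brightest MOE430A sets (SD, n = 3). Srf, which binds the CArG box, gave 1415 ± 203. Mapk10, Map2k2 and Elk1 were not above.

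Among partners and related bZIP factors 11 of 15 were above. Atf2, which pairs with Jun, gave 1849 ± 97.9. The small Maf proteins Mafk and Mafg, which resemble Maff, gave 1108 ± 165 and 3546 ± 443. Nfe2l2, the antioxidant factor that pairs with small Mafs, gave 12457 ± 2317. Jdp2, a repressor that pairs with Jun, was above on 2 of 3 arrays (900.3 ± 214). Like Batf, its relatives Batf2 and Batf3 were not above the limit.

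Genes that limit AP-1 activity were above for 8 of 10. Cop1 and Itch, ubiquitin ligases that target Jun proteins, gave 3585 ± 269 and 2154 ± 341. Dusp1, a phosphatase that inactivates MAP kinases, gave 8372 ± 909, and Zfp36, which speeds decay of AU-rich mRNAs, gave 3629.6 ± 502. The ligase subunit Fbxw7 was under the limit by both of its probe sets, the higher at 639 ± 72.4.

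Of other immediate early genes 12 of 15 were above, with Egr1 at 18776 ± 1367, Nr4a1 at 15301 ± 2980.4, Ier2 at 5508 ± 309.9 and Btg2 at 2074 ± 278. Egr3, Myc and Ccn2 were not above by the rule, though Myc was on 2 of 3 arrays. Genes described as AP-1 targets were above for 15 of 17. The stromelysin Mmp3 gave 138200 ± 23077 and the protease inhibitor Timp1 64695 ± 5320.3. The cyclin Ccnd1 was above by all 3 of its probe sets, the brightest at 5933 ± 2135, and the urokinase receptor Plaur gave 2012 ± 246. Tgfb1 and Cdkn2a were not above by the rule, though Tgfb1 was on 2 of 3 arrays by its MOE430A set. Each of these genes has other regulators too, and the data hold no measure of AP-1 activity.

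**Figure D2:**
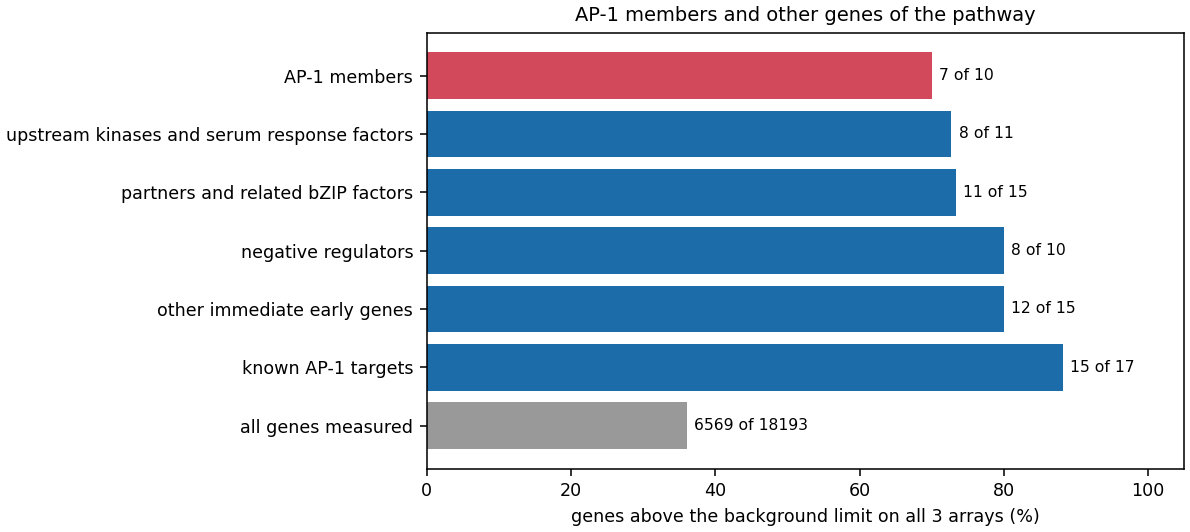
Share of genes above the background limit on all 3 arrays (%), as bars with counts, for the AP-1 subunits, the 5 lists of pathway genes and all genes measured. The AP-1 bar stands at 7 of 10 and the lists between 8 of 11 and 15 of 17, while all genes stand at 6569 of 18193.

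Between arrays, the AP-1 probe sets that were above the limit varied with coefficients of variation of 1.43% to 16.5%, and their highest array exceeded the lowest by 1.03 to 1.36 times. Those not above it varied by 20.9% to 69.9%. MAS5 signals vary more at low intensity, so each probe set was set beside those of like signal, in 10 equal bins of mean log2 signal on its chip. By this measure 5 of 14 had an SD over the median of their bin, which by construction as many probe sets exceed as fall below, and 9 of 14 did without replicate 1. Fos had an SD of 0.23 on the log2 scale, against a bin median of 0.17, and Atf3 1.03, against 0.57. The Jun set 1448694_at had 0.02 and Jund on MOE430A 0.08, both against 0.17. Among the probe sets above the limit no array was the highest throughout. Fosl2 on MOE430B, the Jun set 1417409_at and Junb were highest in replicate 1, Fos, the brighter Fosl1 set and Jund on MOE430A in replicate 2, and Maff in replicate 3, while the Jun set 1448694_at was nearly level. The order of arrays among sets under the limit was not read.

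**Figure D3:**
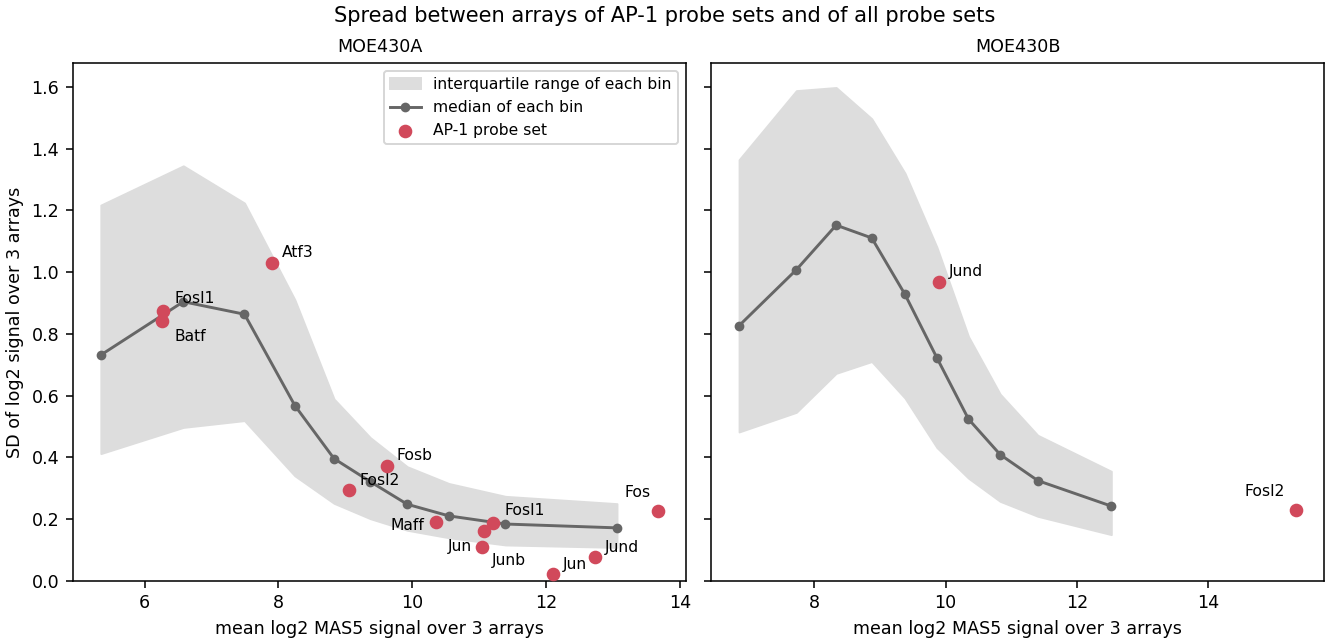
SD of log2 signal over 3 arrays against mean log2 signal, for AP-1 probe sets (points), with the median (line) and the interquartile range (band) of all probe sets in 10 bins of signal, on MOE430A and MOE430B. Jun (SD 0.02) and Jund (SD 0.08) on MOE430A lie under the line, and Atf3 (SD 1.03) and Jund on MOE430B (SD 0.97) lie over it.

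A test between replicates needs a gene measured on both chips. Only Fosl2 and Jund were, and neither passed the mean limit on both chips, so none of the AP-1 genes entered the limma test of 613 genes, which called 7 (1.14%). That count was 4 with array median centring, 7 without replicate 1 and 3 without replicate 3. It was 0 with quantile normalization (38 at an unadjusted p under 0.05), with no intensity trend (56), with the ordinary F-test (25) and without replicate 2 (40). Without that filter limma called 0 of 3807 genes (92 at an unadjusted p under 0.05; 0.0%), Fosl2 and Jund among those not called (limma, adjusted p = 0.946 and 0.942). For Jund the highest and the lowest replicate differed by 0.90 on the log2 scale, mostly through the MOE430B set, and for Fosl2 by 0.32. That test includes sets at background and does not show that the replicates were alike. The other 8 genes have values on 1 chip only and were not tested between replicates.

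**Figure D4:**
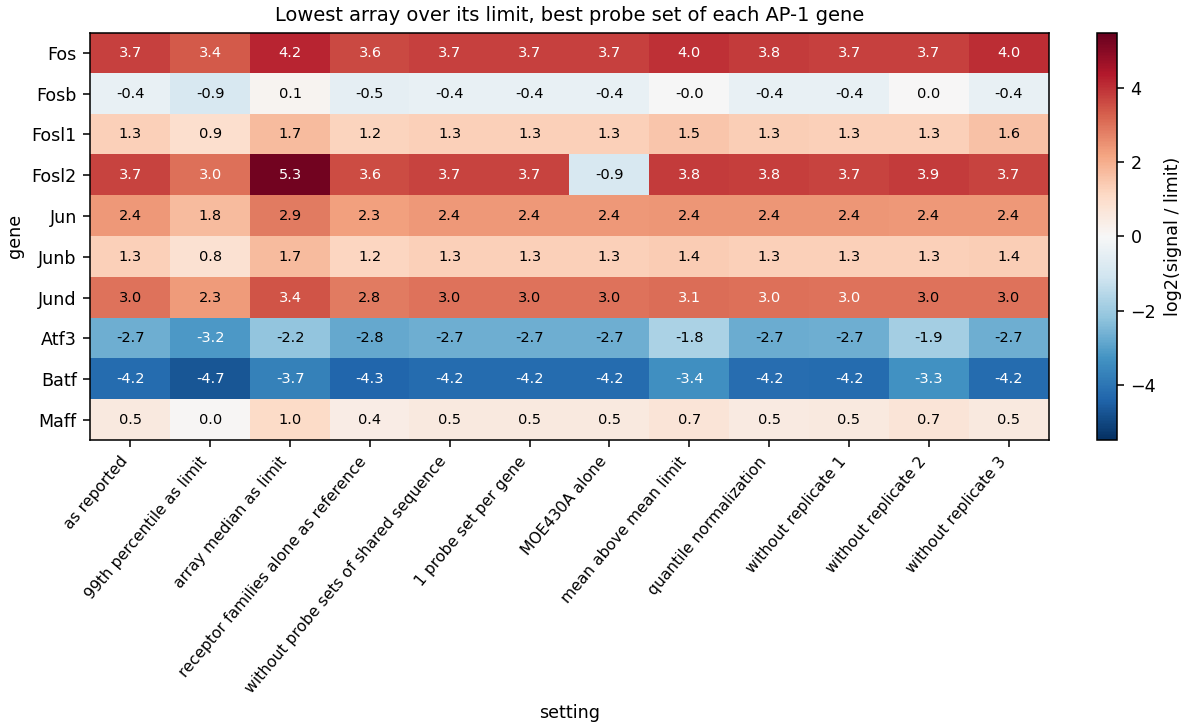
The log2 ratio of signal to limit for the best probe set of each AP-1 gene, on its lowest array (for "mean above mean limit", the mean over arrays), as reported and under 11 other settings; red is above the limit and blue below. Fosb changes sides with the array median as limit and without replicate 2, and Fosl2 with MOE430A alone.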

How the data were processed

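Total RNA of myospheres was measured on 6 Affymetrix arrays, 3 each of MOE430A and MOE430B. The deposited values are MAS5 signal intensity, per the submitters' processing notes, whose version is not given in the sources used here. The equal trimmed means (2% cut from each end) show that the authors scaled each array. Probe sets were named from the given platform annotation where it lists 1 gene, with symbols updated through Entrez numbers in RefSeq GRCm38.p6. MOE430A had 22690 probe sets (20393 with 1 gene) and MOE430B 22575 (14674). All AP-1 probe sets have IDs ending in _at alone, and 0 probe sets list an AP-1 gene with another gene. No value was floored and no pseudocount was added.

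The members and lists were chosen with earlier results of these data known. Named genes are all members and the first 5 of each list, and others were picked with their values in view. A printed list level is that of the brightest probe set on MOE430A, unless another set is named. For Atf2, Jdp2, Zfp36 and Plaur it is an _s_at or _a_at set that can match several transcripts. Other probe sets of a listed gene can lie under the limit.

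Tests used limma 3.58.1 (lmFit, eBayes with intensity trend) in R 4.3.3, with an adjusted p threshold of 0.05, and were tested on simulated data. The changes planted between simulated replicates were larger than those measured for Fosl2 and Jund. Those runs therefore say nothing of differences as small as these. Python 3.11.15, numpy 2.4.6, pandas 2.3.3 and matplotlib 3.10.9 did the rest. With 3 arrays per chip precision is limited. The file headers give each chip type a day of its own for hybridisation and for scanning, but they put the MOE430A scans before the hybridisation, so these days are uncertain. Day and chip cannot be told apart. Alternatives changed the limit, the probe sets, the chips, the scaling, the variance model and the replicates.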

Additional observations from a re-analysis of the deposited data

How the results depend on the processing

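Of 110 calls of single AP-1 genes under 11 alternatives, 107 kept their side of the limit. Many of these calls could not change. All AP-1 sets have IDs ending in _at alone, so leaving out sets of shared sequence removed none. Quantile normalization keeps the order of signals within an array, from which the limit is also taken. MOE430A alone left the genes measured only there as they were, and leaving an array out cannot make a passing gene fail. Fosb passed with the array median as limit (lowest array at 1.09 of it) and without replicate 2 (1.01), and Fosl2 failed with MOE430A alone (0.549). The number of AP-1 genes above the limit was 6 with MOE430A alone, where 42.7% of the genes on that chip were above. It was 8 with the array median as limit (53.9% of all genes) and without replicate 2 (38.5%). It was 7 without replicate 1 (38.6%) and without replicate 3 (37.5%). Under the rule of all arrays, leaving an array out can only add genes, so the count without a replicate could not fall below 7. By limma the number of AP-1 genes called ran from 6 to 7 over 11 alternatives. Maff was lost with the 99th percentile as limit (23.6% of all genes called) and Fosl2 with MOE430A alone (39.4% of the genes on that chip). With the array median as limit it was 7 (49.4% of all genes), and it was also 7 without each replicate (30.5% to 31.2%). The adjusted p-values were less stable than the calls. With no intensity trend they rose for each AP-1 probe set above the limit, to 0.000325 for Fos, 0.0127 for Fosl2 and 0.0205 for Maff (limma). Without replicate 2 that of Fosl2 fell to 3.09e-178 (limma). Of pathway genes 50 to 59 of those measured were above. The lowest count came with MOE430A alone (42.7% of the genes on that chip) and the highest with the array median as limit (53.9% of all genes). For single lists, 55 of 55 counts stayed within 1.5 times. The number of AP-1 probe sets with an SD over the median of their bin was 5 of 14 as reported, 4 with quantile normalization and 6 to 9 when each replicate was left out, the highest without replicate 1. This count therefore rests on few arrays. The replicate test held 0 AP-1 genes under every alternative except the one without a filter, which held 2 and called 0. No paired analysis was possible because the series has 1 condition, and the groups that share replicate numbers are the chips, which were not compared. The MOE430B limit rests on 43 probe sets, which leaves the Fosl2 and Jund values there with the less certain background.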
